A study of Mus musculus with 6 samples.

Results

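The 9 genes described here, Sncb, Sncg, Sncaip, Park7, Pink1, Lrrk2, Uchl1, Siah1a and Vps35, encode synucleins, partners of synucleins and proteins linked to Parkinson disease. They were chosen by symbol, taking each probe set annotated to exactly 1 of them. That gave 15 probe sets of the 45037 on the array that are not controls, and all 9 genes had a probe set of their own, out of 18193 genes with one. Expression was measured in whole brains of male mice aged 2 months, 3 heterozygous for a knockout of periphilin (periphilin+/-, gene Pphln1) and 3 C57BL/6 wild-type littermates. Each brain was hybridised to its own Affymetrix array. How the knockout allele was made is not stated in the labels, nor where it lies in Pphln1. The comparison asks how the brain transcriptome of the heterozygous mice differs from that of littermates. Below, heterozygous 1 to 3 and wild type 1 to 3 name the brains.

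Synucleins are small proteins of nerve terminals that bind membranes and vesicles. In Parkinson disease and related disorders a synuclein accumulates in inclusions, and dopamine neurons of the midbrain are lost. The other genes act in the handling of proteins and organelles: ubiquitin ligation and hydrolysis, removal of damaged mitochondria, protection against oxidants, and sorting of cargo from endosomes. Most are active across the brain and not in dopamine neurons alone.

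The values are probe-set intensities on a linear scale, and differences are given as heterozygous minus wild type on the log2(intensity + 16) scale, which understates the change of dim probe sets. A probe set was tested when its mean lay above the dim limit, a signal of 18.4. Of the 15 probe sets 14 passed, at least 1 for each gene, and the dimmer probe set of Sncaip did not. Intensities of different probe sets depend on their probes, so levels are compared between brains and never between genes.

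Pphln1, the targeted gene, measured 353, 269 and 338 in heterozygous and 295, 290 and 314 in wild-type brains at its brighter probe set, 1434822_at, and overlapped between genotypes. At the dimmer 1435766_at it measured 30.6, 44.4 and 36.6 against 63.2, 47.3 and 46.3, lower in each heterozygous brain. Neither passed the test, and neither checks the genotype unless its probes lie inside the disrupted part.

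None of the 14 probe sets of the 9 genes passed the test, which was limma with p-values adjusted by Benjamini-Hochberg across the 27022 tested and a threshold of 0.05. Over the whole array 0.0148% of probe sets were called, 0.0111% (3) higher and 0.0037% (1) lower in heterozygous brains. Without adjustment, 1 of the 14, that of Uchl1, had a limma p below 0.05, against 4.83% of all probe sets tested. The genotypes did not overlap for 2 of the 14, 1 higher and 1 lower in heterozygous brains, and for 10.2% of all probe sets. The median difference was 0.014 over the 14 and 0.0084 over all. In sign 9 were higher and 5 lower, where 52.3% of all probe sets were higher. These shares lie near those of the array as a whole. Array medians of log2 values averaged 0.035 higher in heterozygous than in wild-type brains, and the sign counts are not corrected for this shift.

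The 95% confidence limits bound what these 6 brains allow. As ratios of heterozygous to wild type, the limits of the 14 intervals lay between 0.72 and 1.39, so each interval leaves out a halving of the signal. The narrowest interval reached 0.17 on the log2 scale to either side of its estimate and the widest 0.41. The number of arrays limits this precision.

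**Figure D1:**
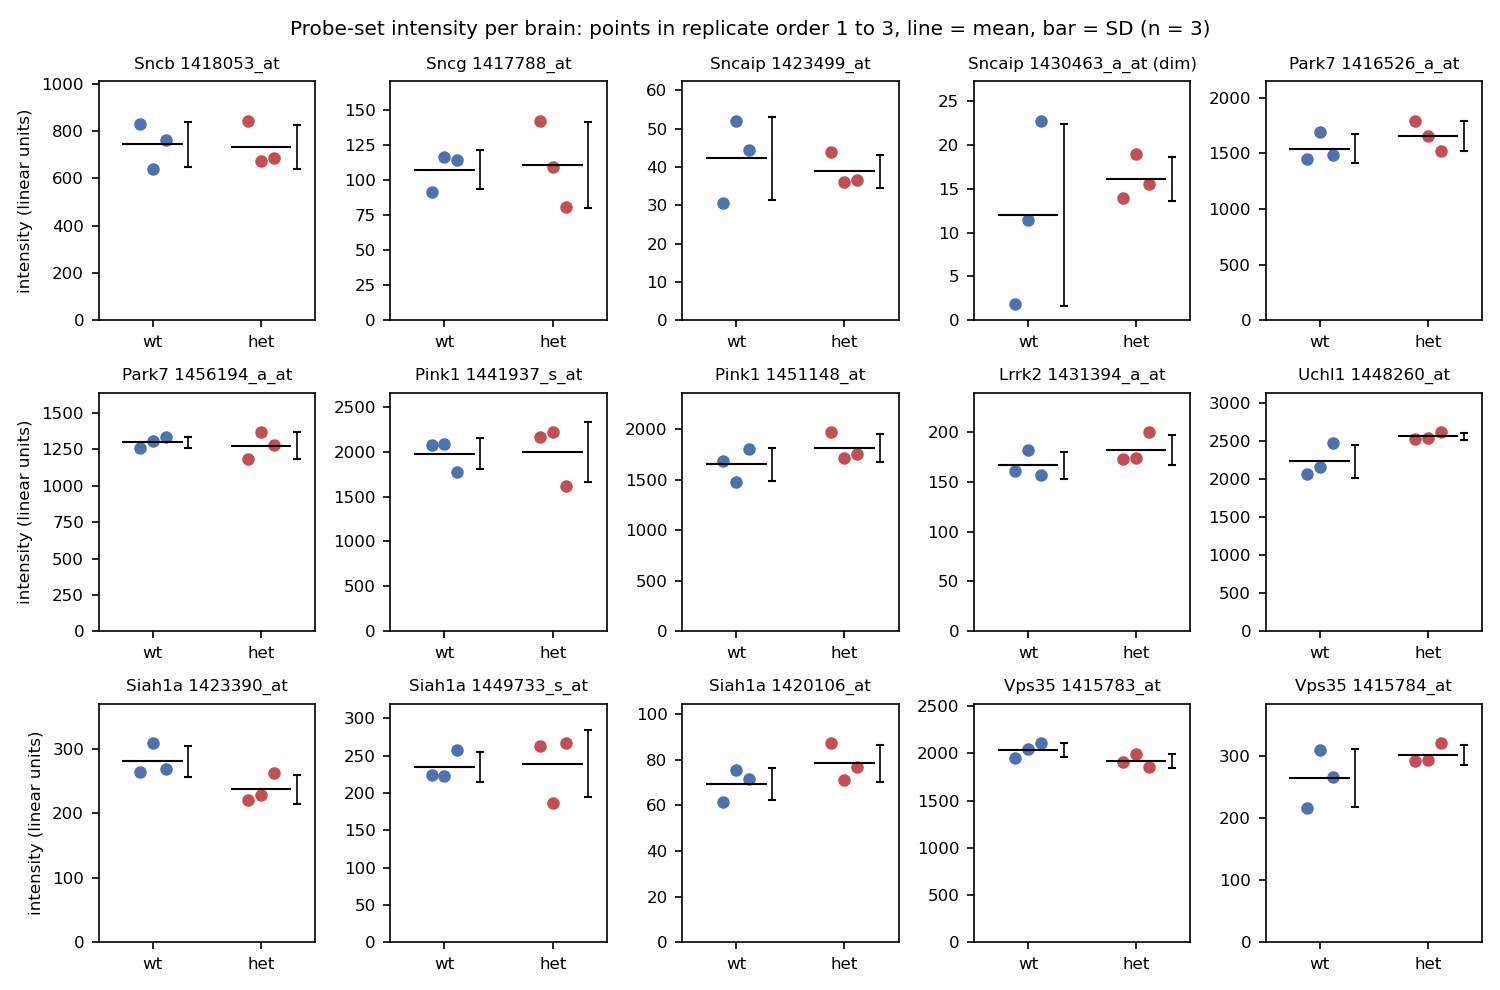
Linear intensity (vertical axes, from 0) of the 15 probe sets in wild-type (wt) and heterozygous (het) brains. Points are single brains in replicate order 1 to 3, lines are means and bars are SDs (n = 3); only Uchl1 and Siah1a 1423390_at show genotypes that do not overlap.

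**Figure D2:**
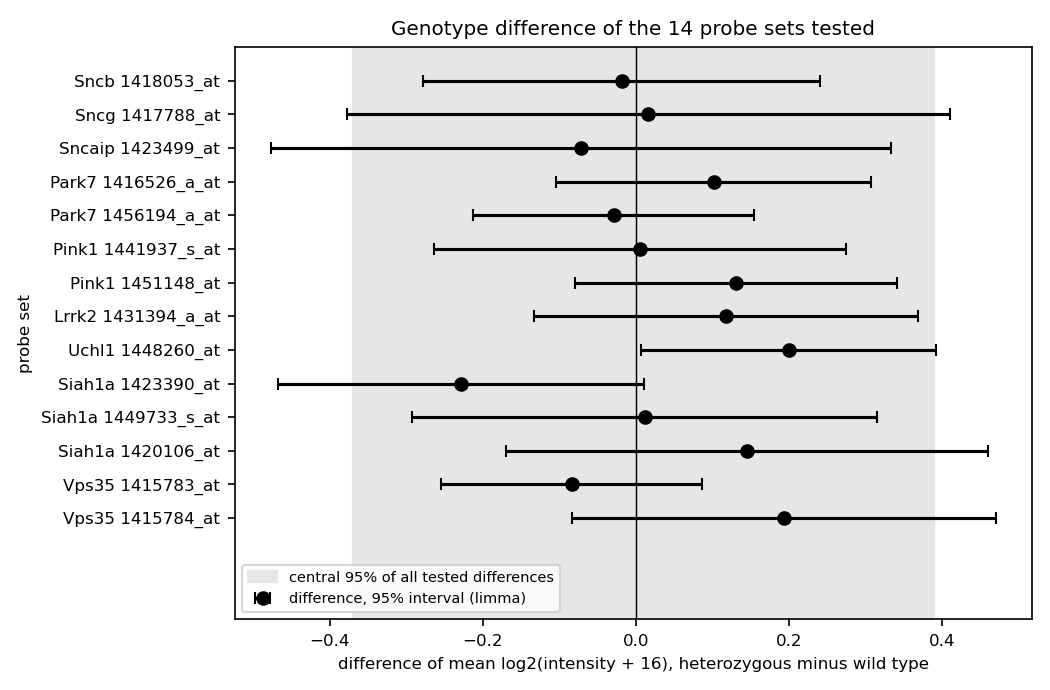
Difference of mean log2(intensity + 16), heterozygous minus wild type, with its 95% confidence interval from limma, for the 14 probe sets tested. The grey band spans the central 95% of the differences of all 27022 probe sets, from -0.37 to 0.39, and each of the 14 estimates lies inside it.

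The synucleins on the array showed similar means in both genotypes. Sncb encodes beta-synuclein, abundant in presynaptic terminals of the brain. Its probe set 1418053_at measured 840, 673 and 684 in heterozygous brains 1 to 3 and 827, 638 and 762 in wild-type brains 1 to 3. Heterozygous 1 and wild type 1 were the brightest, and the ranges of the genotypes overlapped almost fully. The means were 732 ± 93.7 (SD, n = 3) and 743 ± 96.1 (n = 3), with a log2 difference of -0.019 (95% confidence interval -0.28 to 0.24, limma adjusted p = 0.991).

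Sncg encodes gamma-synuclein, found mostly in peripheral neurons, in certain brainstem neurons and in retinal ganglion cells. At 1417788_at it measured 142, 110 and 80.8 in heterozygous and 91.3, 116 and 115 in wild-type brains. The highest and the lowest of the 6 values both came from heterozygous brains. The means were 111 ± 30.5 and 107 ± 13.9 (n = 3 each), a log2 difference of 0.016 (interval -0.38 to 0.41, limma adjusted p = 0.995). That estimate turned to -0.019 when arrays were centred on their medians, so it has no stable sign. The spread of Sncg within genotypes was the widest of the 14, at the 82.4th percentile of residual SDs of all probe sets tested. Among 6 listed markers of peripheral and sensory neurons, Prph and Isl1 lay above the dim limit, Trpv1 and Scn10a lay below it, and 2 had no probe set of their own. Prph, an intermediate filament of peripheral neurons, measured 58.2, 39.4 and 23.9 in heterozygous and 26.4, 43.8 and 32.0 in wild-type brains. Within each genotype that is the order of Sncg. Isl1, a transcription factor gene of sensory and motor neurons, did not share that order, with 56.7, 106.5 and 58.3 in heterozygous and 86.4, 80.5 and 72.9 in wild-type brains. The summed level of the markers ran from 84.6 to 174 in heterozygous and from 120 to 146 in wild-type brains, and their part in the spread of Sncg was not tested.

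Sncaip encodes synphilin-1, a synuclein partner that is itself found in inclusions. It was dim at 1423499_at, with 43.9, 36.2 and 36.7 in heterozygous and 30.6, 52.0 and 44.4 in wild-type brains. The heterozygous values fell inside the wild-type range. The log2 difference was -0.072 (interval -0.48 to 0.33, limma adjusted p = 0.982). The second Sncaip probe set, 1430463_a_at, lay below the dim limit on average, with 14.0, 18.9 and 15.5 in heterozygous and 1.89, 11.4 and 22.7 in wild-type brains, and was not tested.

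Among genes of ubiquitin handling, the probe set of Uchl1 and 1 of the 3 of Siah1a had genotypes that did not overlap, in opposite directions, and the other Siah1a probe sets overlapped. Uchl1 encodes a ubiquitin hydrolase that is among the most abundant proteins of neurons. At 1448260_at it measured 2528, 2540 and 2616 in heterozygous and 2064, 2160 and 2480 in wild-type brains. The heterozygous brains lay close together and above all wild-type brains, with wild type 3 next below them. The means were 2562 ± 47.6 and 2235 ± 218 (n = 3 each), a ratio of 1.15 with limits of 1.01 and 1.31. The log2 difference of 0.20 (SE 0.09) had an unadjusted limma p of 0.0434, but was far from the threshold after adjustment (limma adjusted p = 0.956). The exact permutation p was 0.1, the smallest that 3 against 3 brains allow. Among all probe sets tested, 5.43% had genotypes apart with the heterozygous brains higher. Without wild type 1 the difference was 0.15 and without wild type 3 it was 0.28. On the same arrays the ratio of the 3' to the 5' control probe set of Gapdh, a sign of RNA integrity, split the genotypes. It was higher in each heterozygous brain (0.747 to 0.755) than in any wild-type brain (0.713 to 0.731). The gap, from 0.731 to 0.747, was small, and 10.2% of all probe sets tested also had genotypes that did not overlap. The same ratio of actin overlapped, at 1.60 to 1.72 in heterozygous and 1.64 to 1.70 in wild-type brains. The part of either ratio in the result was not tested.

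Because Uchl1 is neuronal and the samples are bulk tissue, a difference in the number of cells of a type and one in RNA per cell cannot be told apart. Of the 15 neuron markers listed, 11 were higher and 4 lower in sign, with a median log2 difference of 0.05, and none was called. Of all genes 51.9% were higher. The 1 with an unadjusted limma p below 0.05 was Nrgn, a calmodulin-binding protein gene of forebrain neurons, at 954, 932 and 995 in heterozygous and 1165, 1208 and 1368 in wild-type brains (difference -0.37, limma adjusted p = 0.956). Nrgn and Vsnl1 were the 2 markers whose genotypes did not overlap, and both were lower in heterozygous brains, opposite in sign to Uchl1. Over the array, 10.2% of all genes had genotypes that did not overlap. The summed intensity of the 15 markers ran from 50810 to 56030 in heterozygous and from 51120 to 51590 in wild-type brains. Relative to the mean log2 value of the 15 markers on the same array, Uchl1 lay at -0.30, -0.18 and -0.16 in heterozygous and at -0.49, -0.43 and -0.28 in wild-type brains. On that relative scale the genotypes overlapped, with a difference of 0.18 (exact permutation p = 0.2).

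Siah1a encodes a RING-type ubiquitin ligase that can act on synuclein and synphilin. At its brightest probe set, 1423390_at, it measured 221, 228 and 262 in heterozygous and 264, 308 and 269 in wild-type brains. Each heterozygous brain lay below each wild-type brain, but heterozygous 3 and wild type 1 were nearly equal. The means were 237 ± 22.1 and 280 ± 24.4 (n = 3 each), a ratio of 0.85 with limits of 0.72 and 1.01. The log2 difference was -0.23 (SE 0.11, limma adjusted p = 0.956), with an exact permutation p of 0.1. Genotypes apart with the heterozygous brains lower were found for 4.81% of all probe sets tested. The Gapdh ratio given above separates the genotypes on these arrays too, and its part in the values of 1423390_at was not tested.

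The other Siah1a probe sets did not show that direction. At 1449733_s_at the values were 263, 187 and 267 in heterozygous and 225, 223 and 257 in wild-type brains, a difference of 0.011 (SE 0.14). At 1420106_at they were 87.1, 71.0 and 76.9 against 61.3, 75.2 and 71.3, a difference of 0.15 (SE 0.14). Siah1a therefore had 1 probe set lower, 1 near 0 and 1 higher in sign. A further probe set is annotated to both Siah1a and its close relative Siah1b and was left out by the rule. The log2 ratio of 1423390_at to 1420106_at within each array was 1.20, 1.49 and 1.58 in heterozygous and 1.85, 1.83 and 1.71 in wild-type brains. That ratio did not overlap between genotypes (difference -0.37, exact permutation p = 0.1, and 0.5 after Benjamini-Hochberg adjustment over the 5 pairs of probe sets compared), and the part of the Gapdh ratio in it was not tested either. Against 1449733_s_at it overlapped, at -0.24 (exact permutation p = 0.3). The genotypes were already apart at 1423390_at alone. Both ratios were added after the values were seen and are a description, not separate support.

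Vps35 encodes the core subunit of retromer, the coat that returns cargo from endosomes. Its brighter probe set, 1415783_at, measured 1910, 1994 and 1852 in heterozygous and 1954, 2044 and 2105 in wild-type brains. This was the steadiest of the 14, with a residual SD at the 2.97th percentile of all probe sets tested. The log2 difference was -0.084 (interval -0.25 to 0.086, limma adjusted p = 0.960). The second probe set, 1415784_at, went the other way in sign, with 293, 294 and 321 against 217, 311 and 267. Its difference of 0.19 (interval -0.084 to 0.47, limma adjusted p = 0.956) came to 0.066 without wild type 1, which held the lowest value. The log2 ratio of the Vps35 probe sets within arrays differed by -0.28 between genotypes and overlapped (exact permutation p = 0.2). Vps35 and Siah1a lie close together on chromosome 8, with 10 protein-coding genes between them in the RefSeq gene order of assembly GRCm38.p6.

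Both genes of mitochondrial and oxidant defence overlapped between genotypes at each of their probe sets. Park7 encodes DJ-1, a small protein that responds to oxidants. At 1416526_a_at it measured 1789, 1658 and 1519 in heterozygous and 1450, 1692 and 1484 in wild-type brains, a log2 difference of 0.10 (interval -0.10 to 0.31, limma adjusted p = 0.960). At 1456194_a_at it measured 1182, 1368 and 1278 against 1261, 1306 and 1334, a difference of -0.029 (interval -0.21 to 0.15). The order of the brains differed between the probe sets, since heterozygous 1 was the highest of the 6 by the first and the lowest by the second.

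Pink1 encodes the kinase that marks damaged mitochondria for removal. At 1441937_s_at it measured 2160, 2214 and 1616 in heterozygous and 2070, 2082 and 1774 in wild-type brains. Heterozygous 3 and wild type 3 were lowest, and the ranges overlapped. The log2 difference was 0.0053 (interval -0.26 to 0.27, limma adjusted p = 0.997), and it was -0.030 with arrays centred on their medians. At 1451148_at the values were 1972, 1717 and 1755 against 1684, 1483 and 1806, a difference of 0.13 (interval -0.080 to 0.34, limma adjusted p = 0.956).

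Lrrk2 encodes a large kinase that phosphorylates Rab GTPases, the regulators of vesicle traffic. It lies on chromosome 15, as does Pphln1, with 6 protein-coding genes between them in the RefSeq order. Its single probe set, 1431394_a_at, measured 173, 174 and 199 in heterozygous and 160, 182 and 157 in wild-type brains. Heterozygous 3 was the highest, and wild type 2 exceeded the other heterozygous brains. The means were 182 ± 15.2 and 166 ± 13.8 (n = 3 each), a log2 difference of 0.12 (interval -0.13 to 0.37, limma adjusted p = 0.961). Without heterozygous 3 that difference was 0.056 and without wild type 2 it was 0.18.

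Of the 6 genes between Lrrk2 and Pphln1, the 3 nearest to Pphln1 (Gxylt1, Yaf2 and Zcrb1) had genotypes apart and lower in heterozygous brains, at -0.64, -0.52 and -0.45 by their brightest probe sets. Those values missed the threshold over all probe sets, with limma adjusted p of 0.768, 0.119 and 0.656, although a second Yaf2 probe set was called. Of all probe sets tested, 4.81% had genotypes apart and lower in heterozygous brains. Cntn1 and Pdzrn4, nearer to Lrrk2, lay at -0.078 (SE 0.079) and -0.24 (SE 0.19), with genotypes overlapping. Smgc was below the dim limit. The upper interval limit of Lrrk2 corresponds to a ratio of 1.29 and the lower to 0.91, so its interval holds no fall as large as that of the 3 genes beside Pphln1. Whether Lrrk2 and those genes differ was not tested.

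**Figure D3:**
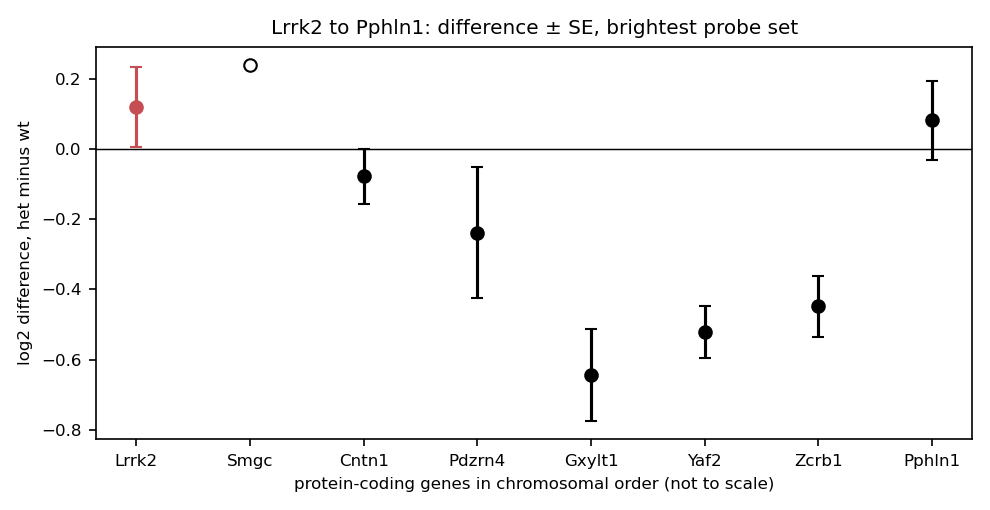
Log2 difference, heterozygous minus wild type, with its SE, for Lrrk2 (red), Pphln1 and the 6 protein-coding genes between them in chromosomal order, each by its brightest probe set. The open circle is Smgc, below the dim limit and without an SE; Lrrk2 lies at 0.12 and the 3 genes next to Pphln1 lie between -0.64 and -0.45.

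The 9 genes did not rise and fall together across brains. By the brightest probe set of each gene, deviations from the mean of the 6 brains ran from -0.35 to 0.35 on the log2 scale, both extremes being Sncg in heterozygous brains. Wild type 1 held the lowest value for 5 of the 14 probe sets and the highest for none, whereas heterozygous 1 held the highest for 5 and the lowest for 2. The residual SD of the 14 lay at the 30.0th percentile of all probe sets tested in the median, and 8 of the 14 varied less than the median probe set. Sncb was high in heterozygous 1 and wild type 1, and Sncaip in wild type 2. Uchl1 lay above its mean in all heterozygous brains and also, by 0.054, in wild type 3.

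**Figure D4:**
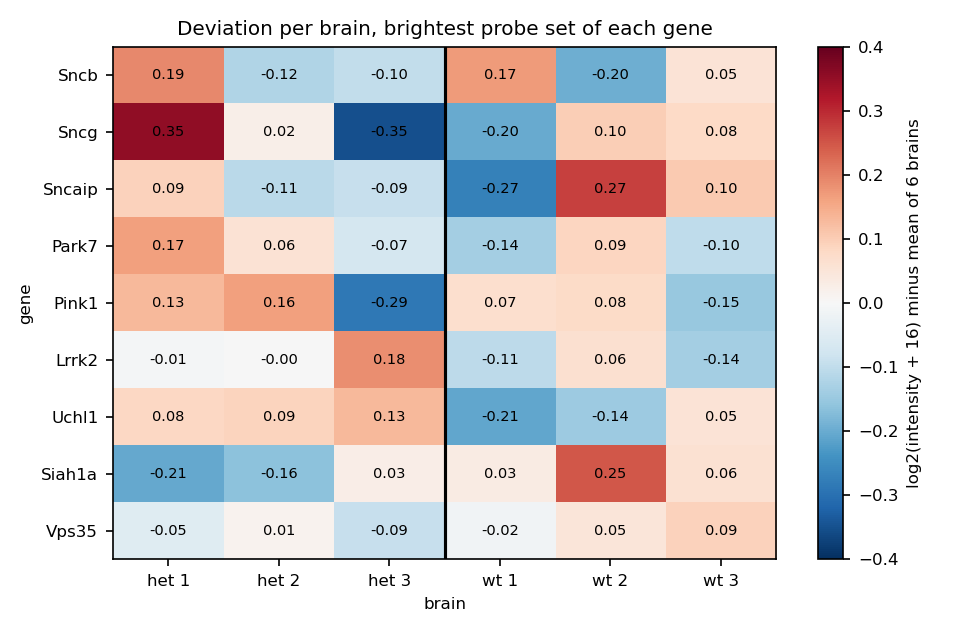
Deviation of log2(intensity + 16) from the mean of the 6 brains for the brightest tested probe set of each gene (rows) in each brain (columns, het heterozygous, wt wild type). Red is above and blue below the mean. Uchl1 is above its mean in each heterozygous brain and in wild type 3, and Sncg spans the range from -0.35 to 0.35.

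Genes with the most similar profile over the 6 brains were sought for Sncb, Uchl1 and Lrrk2 among 23472 probe sets with 1 gene. For Sncb they were Nrros, Bag1 and Slc38a10, with Pearson correlations of 0.998, 0.995 and 0.993. Mrtfa, Pigx and Stx18 came nearest to Uchl1, at 0.992, 0.988 and 0.983. Tial1, Htra3 and Mapk8ip2 did so for Lrrk2, at 0.994, 0.988 and 0.986. All points share the same 6 arrays, and with this many probe sets, correlations above 0.95 were reached by 95 probe sets for Sncb, 34 for Uchl1 and 19 for Lrrk2. The names are a description of these arrays.

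Further genes of the same pathways were grouped in 6 lists, each gene by its brightest probe set. Of 137 genes tested none was called by limma after adjustment, where 0.00768% of all genes (1) were called in this way, and 5 had an unadjusted limma p below 0.05, against 4.41% of the 13024 genes tested on the array. In sign 83 were higher and 54 lower, with a median difference of 0.022, where 51.9% of all genes were higher and their median was 0.0067. These signs too are not corrected for the shift of 0.035 in array medians. Genotypes did not overlap for 9 higher and 6 lower genes, near the 10.2% of all genes.

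The list of retromer, sorting nexin and associated genes was split evenly, with 10 higher and 11 lower of 21 and a median of -0.0030. The subunits that bind Vps35 lay at -0.077 (SE 0.12) for Vps26a, -0.11 (SE 0.11) for Vps26b and 0.15 (SE 0.098) for Vps29. Snx1, a membrane-bending sorting nexin, lay at 0.022. Its partner Snx2, the list's gene with an unadjusted p below 0.05, measured 768, 673 and 695 in heterozygous and 978, 846 and 741 in wild-type brains, with a difference of -0.25 (SE 0.11, limma adjusted p = 0.956). Heterozygous 1 lay above wild type 3, so its genotypes overlapped.

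Relatives, partners and substrates of Lrrk2 counted 16 higher and 10 lower of 26, with a median of 0.0285. Lrrk1, the paralogous kinase, was dim at 33.2 ± 11.0 and 30.0 ± 12.9 (n = 3 each), with a difference of 0.11 (SE 0.24). The substrate genes Rab8a and Rab10 lay at 0.059 (SE 0.094) and -0.15 (SE 0.10), and Rab29, a Rab that recruits the kinase to membranes, at 0.14 (SE 0.15). Rab8b and Rab5b, named because of their unadjusted p and thus after their values were seen, lay at -0.24 (SE 0.091) and -0.49 (SE 0.20). A second Rab5b probe set lay at 0.38 (SE 0.22), opposite in sign.

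Mitophagy and mitochondrial quality genes counted 23 higher and 11 lower of 34, with a median of 0.043. Fbxo7, a ubiquitin ligase subunit, lay at 0.076 (SE 0.11), the mitofusin gene Mfn2 at 0.067 (SE 0.12) and Usp30, a deubiquitinase of the outer mitochondrial membrane, at -0.16 (SE 0.12). Tomm70a, an import receptor of that membrane named after its values were seen, lay at -0.19 (SE 0.087, limma adjusted p = 0.956). Its other tested probe sets lay at -0.19, -0.060 and 0.058, the last opposite in sign. Genes of ubiquitin hydrolysis, Siah ligases and chaperones counted 10 higher and 6 lower of 16, with Siah2 at 0.014, Uchl5 at -0.077 and the chaperone gene Hspa8 at 0.13 (SE 0.11). Heterozygous 1 stood out for Hspa8, at 10250 against 7567 to 8110 in the other brains.

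Among oxidative stress genes linked to DJ-1, 11 were higher and 8 lower of 19. Nfe2l2, the master regulator of the antioxidant response, lay at -0.098 (SE 0.11) and the superoxide dismutase gene Sod1 at -0.12 (SE 0.077). Sod1 genotypes did not overlap, at 1938 to 2002 in heterozygous and 2062 to 2245 in wild-type brains, yet a second bright Sod1 probe set, 1451124_at, lay at 0.0085. Genotypes were apart for 10.2% of all genes. Glo1, which encodes the glyoxalase that clears methylglyoxal, had the smallest unadjusted p of the 137 and was named for it. It measured 1652, 1519 and 1626 in heterozygous and 1078, 1417 and 1193 in wild-type brains at 1424109_a_at. The difference was 0.38 (SE 0.10, limma adjusted p = 0.956), and the other Glo1 probe sets lay at 0.36, 0.21 and 0.17. All 4 were thus higher in sign, and none was called. They measure a single gene in the same brains, and at each of the others the genotypes overlapped. Wild type 2 was the highest brain at 1436070_at, with 501. The last list, other genes linked to parkinsonism, counted 13 higher and 8 lower of 21, between -0.26 and 0.14, with none at an unadjusted p below 0.05.

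**Figure D5:**
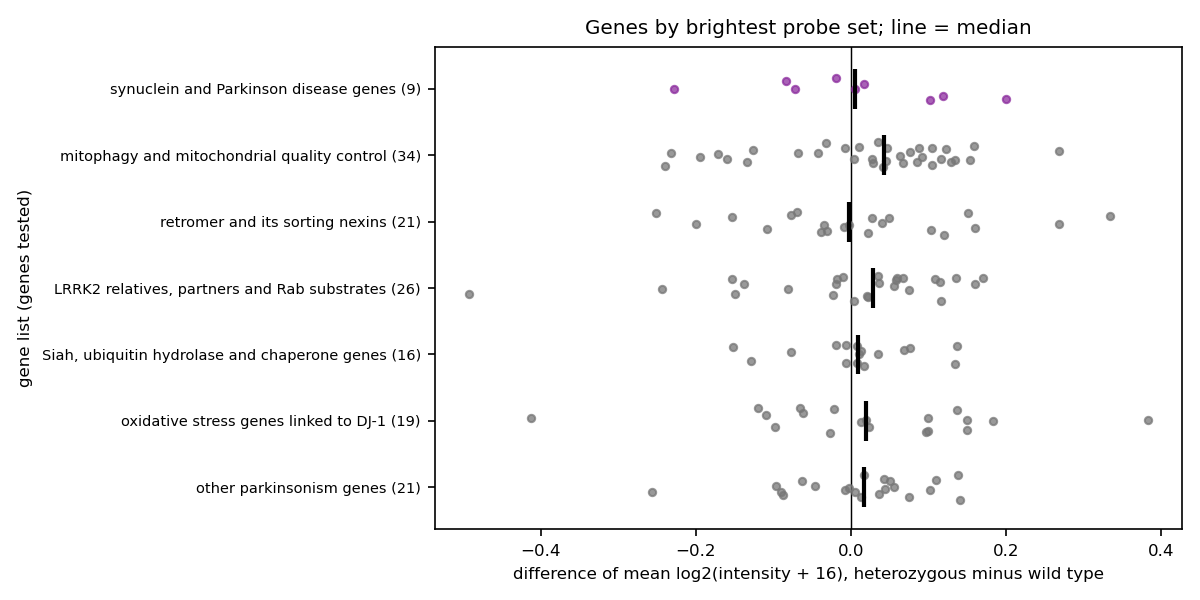
Log2 difference, heterozygous minus wild type, of each gene by its brightest probe set, for the 9 genes (top, purple) and the 6 pathway lists (grey, number of genes tested in parentheses). Vertical bars are medians, between -0.0030 and 0.043, and no point passed the adjusted threshold.

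Dopamine neurons make up a small part of the whole brain, and none of the 8 markers tested was called by limma or had an unadjusted p below 0.05. In sign 4 were higher and 4 lower, from -0.30 for En2 to 0.27 for Kcnj6. Th, the rate-limiting enzyme of dopamine synthesis, measured 182, 193 and 198 in heterozygous and 202, 143 and 175 in wild-type brains (difference 0.14, SE 0.13). Slc6a3, the dopamine transporter gene, measured 97.7, 107 and 104 against 109, 94.2 and 95.3 (difference 0.043, SE 0.12). Both overlapped between genotypes. Slc18a2, the vesicular monoamine transporter gene, did not overlap, at 119 to 123 in heterozygous and 129 to 139 in wild-type brains. The same held for 10.2% of all genes. Pitx3, En1, Foxa2 and Lmx1b, transcription factor genes of these neurons, were below the dim limit. The summed level of the 12 markers ran from 2619 to 2970 in heterozygous and from 2734 to 2958 in wild-type brains. Most of that sum came from Aldh1a1 (means 1141 in heterozygous and 1086 in wild-type brains) and Nr4a2 (671.5 and 702.7). It is therefore no measure of dopamine neuron content. Levels of the 9 genes in dopamine neurons alone cannot be read from whole brain.

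Log2 values correlated at 0.978 to 0.984 between arrays, and array medians ran from 31.2 to 34.5. The ratio of the 3' to the 5' control probe set of actin was 1.60 to 1.72 over all 6 and overlapped between genotypes. That of Gapdh split the genotypes by a small gap, as given beside Uchl1. The 18S control ranged from 110 in heterozygous 1 to 237 in wild type 2, and its part in the values was not tested. The markers of neurons (15), astrocytes (7), oligodendrocytes (6), microglia (6) and endothelium (5) with a probe set of their own all lay above the dim limit on average, although endothelial Cdh5 was at 18.4 in wild type 2. Summed pituitary markers varied widely, from 190 to 6715 in heterozygous and from 803 to 21270 in wild-type brains, highest in wild type 1. The part of pituitary tissue in the values of the 9 genes was not tested, and the results without wild type 1 are given above for Uchl1 and Vps35.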

How the data were processed

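The authors deposited probe-set intensity values, 1 linear value per probe set and array. Per the labels' protocols, labelling started from an oligo(dT) primer, which favours 3' ends. No label names the software that summarised the probes. The central 96% of values had the same mean on all 6 arrays, so the deposited intensities had been scaled. Genes were named from the platform annotation, and symbols were updated by Entrez identifier (34741 of 34945 probe sets with 1 gene matched RefSeq, GRCm38.p6). The 64 control probe sets were left out of the tests.

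Intensities were transformed as log2(value + 16). Probe sets at or below the 40th percentile of mean log2 value (18.4 as a signal) were not tested. Genotypes were compared with limma 3.58.1 in R 4.3.3 (lmFit, eBayes with intensity trend, two-sided, Benjamini-Hochberg over 27022 probe sets), and single values with two-sided exact permutation tests. The script was tested on simulated data. All probe sets of the 9 genes are given. Listed pathway genes were named by function from a written list, or, as stated beside them, by their values. The 9 genes, the lists and the tests were chosen with earlier results of these data known. The comparison of probe sets within a gene and the Uchl1 ratio to neuron markers were added after the values were seen. Alternatives were pseudocounts of 1 and 64, quantile normalization, centring on array medians, no dim filter or the 60th percentile, eBayes without trend or robust, array weights, a replicate block, a threshold of 0.1 and leaving out each array.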

Additional observations from a re-analysis of the deposited data

How the results depend on the processing

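None of the 14 probe sets of the 9 genes and none of the 137 pathway genes was called under any of the 17 alternatives, and the lowest limma adjusted p of a member was 0.664, for Uchl1 with the replicate block. The count over all probe sets, 4, was 1 without the dim filter and 1 without the intensity trend, and ran from 1 (without heterozygous 2) to 14 (without heterozygous 1) with single arrays left out. With the replicate number as a block it was 5. Deviations of same-numbered brains correlated at 0.082, 0.20 and -0.018, and only heterozygous 2 correlated best with its own number. With 3 brains per genotype, these correlations cannot decide whether the numbers pair brains. The block changed no call of the 9 genes.

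The sign held under all 16 alternatives for 8 of the 14 probe sets, among them Uchl1 (0.15 to 0.28), Siah1a 1423390_at (-0.30 to -0.16), Lrrk2 (0.056 to 0.18) and both of Vps35. For the other 6, all near 0, it changed in 21 of the 223 values recomputed over the 14 probe sets. Median centring gave -0.0186 for Sncg, -0.0297 for Pink1 1441937_s_at and -0.0237 for Siah1a 1449733_s_at. Array weights gave -0.0134 for Sncg and -0.0126 for Pink1, and quantile normalization -0.0167 for Pink1. With single arrays left out, Sncb ranged from -0.122 to 0.0617, Sncg from -0.156 to 0.197, Sncaip 1423499_at from -0.225 to 0.0474, Park7 1456194_a_at from -0.0797 to 0.0242, Pink1 1441937_s_at from -0.0758 to 0.150 and Siah1a 1449733_s_at from -0.0706 to 0.167. Of those that kept their sign, Park7 1416526_a_at ranged from 0.0444 (without heterozygous 1) to 0.170 (without wild type 2), Pink1 1451148_at from 0.0541 (without wild type 2) to 0.195 (without wild type 3), Siah1a 1420106_at from 0.0763 (without wild type 1) to 0.202 (without heterozygous 2) and Vps35 1415784_at from 0.0656 (without wild type 1) to 0.309 (without wild type 2). Sncaip was not tested under the 60th percentile filter. No cause was tested. Dim probe sets, Sncaip above all, lie close to background, where the scale understates changes.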
